A study of Drosophila melanogaster with 8 samples.

Results

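This account concerns transcripts of the Drosophila melanogaster head that were read well above background in 1 strain and at background in another. A transcript counted as present in a strain when its log2 intensity was at least 6.5 on both arrays of that strain, and as absent when it was at most 3 on both. Of 18769 probe sets compared, 20 were present in at least 1 strain and absent in at least 1 other, which is 0.107% of them. Elovl7, Ance-4 and 3 cytochrome P450 genes (Cyp4e3, Cyp6t1 and Cyp6a17) were left out by name, and the other 15 are described here. They were chosen by the strain levels themselves, so those levels are a description with no test. Of the 15, 13 carried 1 gene symbol, 1 carried the symbols of lcs and sesB, and 1 carried none. All 15 passed the filter on low values used for the tests of time (a log2 of at least 4 on at least 2 arrays), as the rule makes them do.

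Each array held RNA from fly heads, read with the Affymetrix Drosophila Genome 2.0 array, on which several short probes together form a probe set and give 1 value for a transcript. The 4 strains were the knockout (genotype w1118 ; mir959-962-KO), its w1118 control (genotype w1118), the overexpression strain (yw ; tim-gal4, UAS-mir-cluster/CyO) and the tim-gal4 control (yw ; tim-gal4/CyO). Adult flies spent 3 days in 12 h of light and 12 h of dark, and each strain was collected in the light at ZT4, 4 h after lights on, and in the dark at ZT16, 16 h after lights on. There was 1 array for each strain and time, with no replicates, so the precision of a level is limited by how few arrays there are. Both strains of the yw background carry the tim-gal4 driver and the CyO balancer, a second chromosome with inversions. The tim promoter makes GAL4 in cells that express timeless, the clock cells among them, so the transgene is not driven in every cell of the head. Age, sex and the number of heads per array are not given in the sources used here. Each manipulation is represented by 1 strain, so it cannot be told apart from anything else that is particular to that strain.

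MicroRNAs are short RNAs that pair with messenger RNAs through their seed and usually lower the level or the translation of their targets by modest amounts. The cluster studied here, mir-959 to mir-964, is known to be transcribed with a daily rhythm in the fly head. The genotype of the knockout names mir-959 to mir-962 only, and that of the overexpression strain does not say which members the transgene holds. Laboratory strains of Drosophila, kept apart for many generations, are also known to differ from each other in the transcripts they make.

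Markers of the head were read on all 8 arrays. The median of the 4 glial genes lay between 8.59 and 9.33, that of the 6 photoreceptor genes between 11.36 and 12.07, and that of the 6 neuronal genes between 6.84 and 7.95. Genes of organs outside the head stood out on 2 arrays, knockout ZT16 and tim-gal4 control ZT16. There, 16 of 17 accessory gland genes, 13 of 19 testis genes and 8 to 10 of 19 gut enzymes reached a log2 of 4, against at most 1, 2 and 0 on the other 6 arrays. All 7 muscle genes reached 4 on those 2 arrays, against 4 of 7 on each of the others. A member has to meet its threshold at both times, and with the ZT16 arrays alone 201 probe sets would have been members instead of 15. Of the 15, CG16826, whe, 1641567_at and tobi read over 1 higher (log2) on those 2 arrays than on the ZT4 array of the same strain, and their values are given below with the marker lists beside them.

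Of the 15 transcripts, 8 were absent in 1 manipulated strain only, 2 of them in the knockout and 6 in the overexpression strain. Of these 8, Ect3, CG4306, CG30002 and CG30083 were present on both arrays of that strain's own control, and in the other 4 that control met neither threshold on both of its arrays. A further 4 were absent in both strains of the w1118 background, and none was absent in the strains of the yw background alone. CG14419 was absent in the tim-gal4 control alone. Tektin-C was absent everywhere but in w1118, and tobi was absent in w1118 and in the overexpression strain. The gap between the lowest array of the strains that had a transcript and the highest array of those that lacked it was between 3.64 and 6.0 on the log2 scale, with a median of 4.71. A fold against a value at background is not quantitative, so only levels are given.

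**Figure D1:**
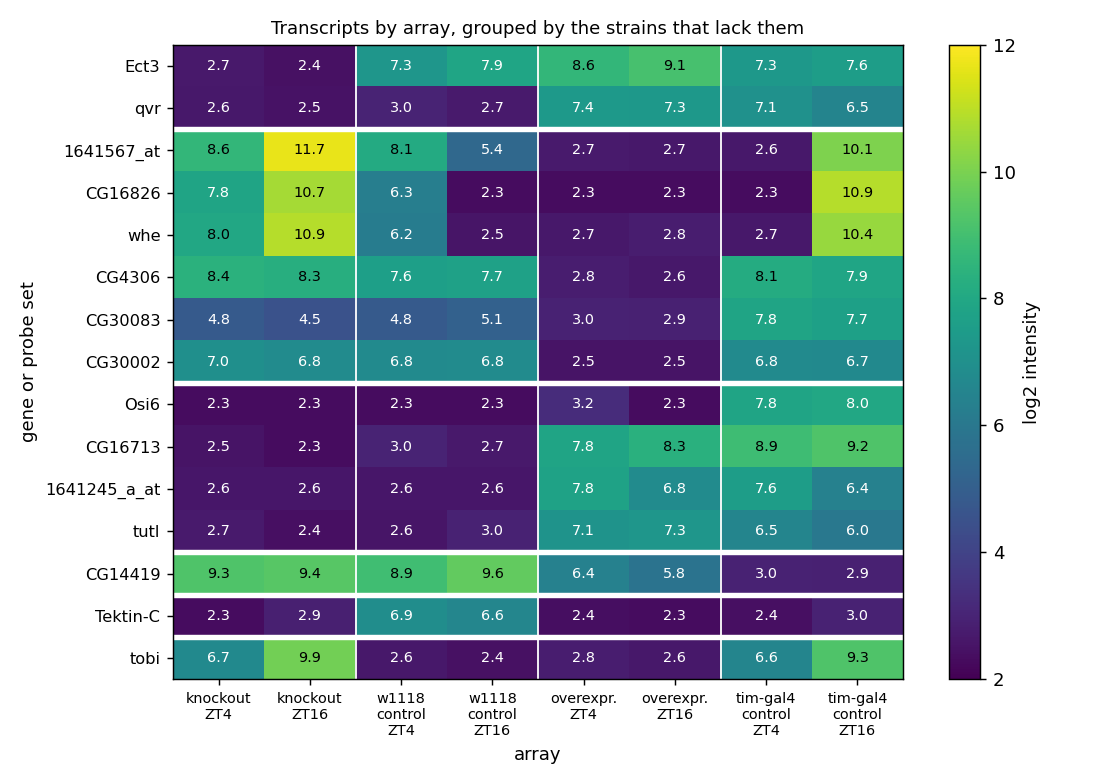
Log2 intensity of the 15 transcripts (rows) on the 8 arrays (columns, ZT4 and ZT16 of each strain), with colour and printed value for each array; thick white lines separate groups that are absent in different strains. Dark cells at 2.3 to 3.0 mark arrays on which a transcript was at background, and 9 of the 15 also have a strain that met neither threshold on both of its arrays.

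Set against its own control, a manipulated strain lacked few transcripts. The knockout lacked 3 probe sets that were present in w1118 (0.016% of those compared), of which Ect3 and Tektin-C are described here. The overexpression strain lacked 7 that were present in the tim-gal4 control (0.0373%), and CG4306, CG30002, CG30083 and tobi are the ones described here. In the other direction 1 probe set, tobi, was present in the knockout and absent in w1118 (0.00533%), and none was present under overexpression and absent in the tim-gal4 control (0%). The levels of the strains outside each pair divide these transcripts further. Ect3, CG4306 and CG30002 were present in all 3 strains other than the one that lacked them, whereas Tektin-C, tobi and CG30083 were not.

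Ect3, on chromosome arm 3R, is annotated as a relative of beta-galactosidases, enzymes that remove galactose from glycans. It read 2.68 at ZT4 and 2.44 at ZT16 in the knockout, against 7.26 and 7.89 in w1118. In the overexpression strain it read 8.62 and 9.09, and in the tim-gal4 control 7.34 and 7.57. The knockout arrays lay at background and the other 6 arrays did not overlap with them. The closest pattern over the 8 arrays among 8300 probe sets above the filter was that of Elovl7 (Pearson correlation 0.975). Elovl7 met the same rule and was at background in the knockout alone, and such a shared split gives a high correlation by itself. It also lies on 3R, an arm with 25.2% of all placed probe sets, and its distance from Ect3 was not examined. Ect3 had 5 neighbours above the filter among the 5 nearest measured genes on each side, and in none was every knockout array at least 2-fold below every array of the other strains, a split that 0.217% of all probe sets above the filter showed. Its nearest measured neighbour KLHL18 read 6.23 and 5.99 in the knockout and 6.31 and 6.51 in w1118. CG3397, with 2 annotated genes between it and Ect3, went the other way: it read 6.25 and 5.94 in the knockout, 2.34 and 2.35 in w1118, and at most 2.92 on the 4 arrays of the yw background. CG18547, with 4 annotated genes between, was also higher in the knockout (6.44 and 6.47) than in w1118 (4.77 and 4.49). In the yw background it read 7.22 to 7.88.

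The second transcript of this group, from qvr on 2R, was absent in the knockout only by a narrow margin. The gene qvr, also called sleepless, encodes a membrane-anchored protein that promotes sleep and acts on the Shaker potassium channel. The probe set that met the rule read 2.64 and 2.47 in the knockout and 3.01 and 2.73 in w1118, where the ZT4 array lay just above the threshold for absence. Under overexpression it read 7.38 and 7.33, and in the tim-gal4 control 7.06 and 6.51. The split therefore ran between the backgrounds rather than between the knockout and its control.

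The other probe sets of qvr did not all show this split. One of them, 1635961_at, read between 8.69 and 9.39 on all 8 arrays, with 9.02 and 8.69 in the knockout against 9.03 and 9.08 in w1118. Another, 1638713_at, read between 2.32 and 2.42 on the 4 arrays of the w1118 background, and 5.81 and 5.89 under overexpression against 5.10 and 4.60 in the tim-gal4 control. Of the 3 probe sets of the gene, 2 thus separated the backgrounds and 1 read high in all strains. Which part of the gene each probe set reads was not analysed here. Near qvr on 2R, CG9003 was at least 2-fold lower on both knockout arrays (5.30 and 5.25) than on every array of the yw background (6.99 to 7.68), a split shown by 2.29% of the probe sets above the filter. In w1118 it read 5.50 and 5.48, near the knockout.

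**Figure D2:**
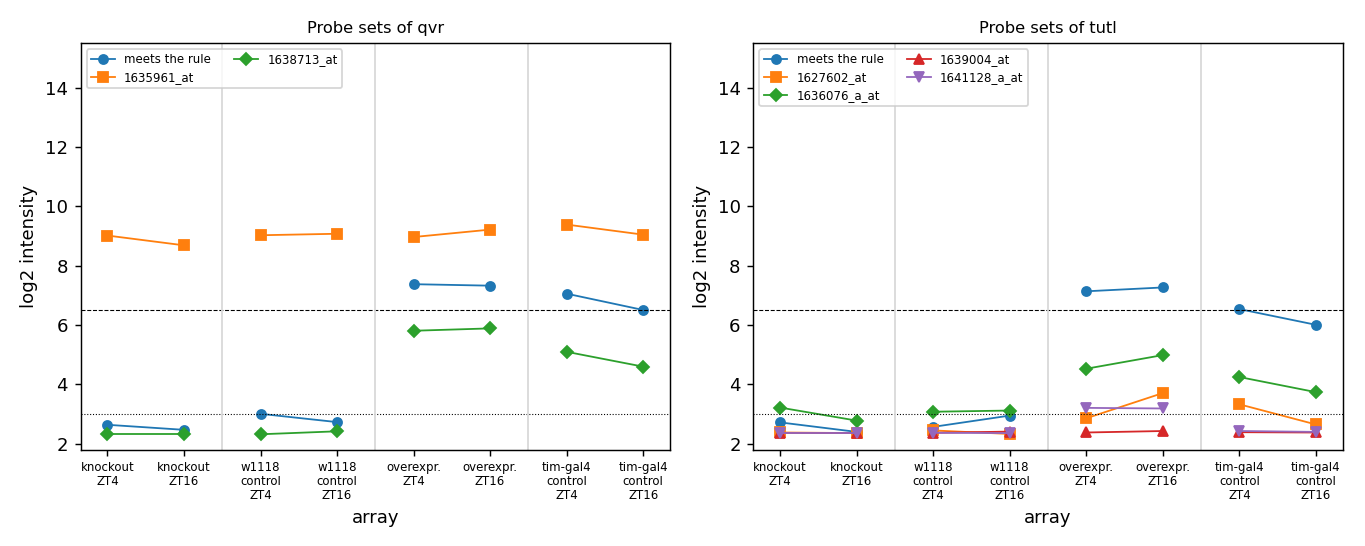
Log2 intensity of every probe set of qvr (left) and tutl (right) on the 8 arrays; lines join ZT4 and ZT16 of a strain, the dashed line marks the threshold for presence (6.5) and the dotted line that for absence (3). For qvr, 1635961_at stays between 8.69 and 9.39 while the other probe sets are at background in the knockout and w1118.

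The overexpression strain lacked CG4306 and CG30002 while every other strain had them. CG4306, on 3L, read 2.80 and 2.64 under overexpression, against 8.14 and 7.86 in the tim-gal4 control. It read 8.37 and 8.27 in the knockout and 7.63 and 7.72 in w1118. CG30002, on 2R, read 2.54 at both times under overexpression, against 6.79 and 6.73 in the tim-gal4 control. Its readings were 6.98 and 6.81 in the knockout and 6.77 and 6.81 in w1118. In both genes the 6 arrays of the other strains lay close together, and the 2 arrays of the overexpression strain lay far below all of them.

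The gene next to CG30002, CG1773, showed the same split at a lower level. It read 2.45 and 2.35 under overexpression and 4.98 and 4.71 in the tim-gal4 control, with 4.23 and 4.25 in the knockout and 4.31 and 4.51 in w1118. Of 7 neighbours of CG30002 above the filter it was the only one whose overexpression arrays were at least 2-fold below all others, a split shown by 0.843% of the probe sets above the filter. For CG4306, neither of 2 such neighbours showed it, and the adjacent gene CG32196 read 5.85 and 5.82 under overexpression and 4.59 and 4.68 in the tim-gal4 control. The probe set most like CG30002 was that of Idgf5, a chitinase-like growth factor gene (Pearson correlation 0.997 over 8 arrays). It read 3.04 and 3.16 under overexpression and 6.93 and 6.94 in the tim-gal4 control, just outside the rule.

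CG30083, on 2R, was graded over the strains. It read 2.96 and 2.90 under overexpression, against 7.84 and 7.67 in the tim-gal4 control. In the knockout it read 4.85 and 4.51 and in w1118 4.83 and 5.12, between the thresholds. The tim-gal4 control was thus the single strain with a high level. Of its 2 neighbours above the filter, none had both overexpression arrays at least 2-fold below those of the tim-gal4 control, a split shown by 1.88% of the probe sets above the filter.

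The remaining transcripts absent under overexpression alone were CG16826 on 2L, whe on the X chromosome and 1641567_at, a probe set that carries the symbols of lcs and sesB. CG16826 read 2.32 at both times under overexpression, and 2.32 at ZT4 and 10.89 at ZT16 in the tim-gal4 control. In the knockout it read 7.84 and 10.65, and in w1118 6.28 and 2.32. The level of whe was 2.66 and 2.79 under overexpression, 2.66 and 10.45 in the tim-gal4 control, 8.0 and 10.87 in the knockout and 6.20 and 2.55 in w1118. Both genes were high in the tim-gal4 control at 1 time only, so that no loss under overexpression can be read at ZT4, when the control was at background too.

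For 1641567_at the readings were 2.74 and 2.66 under overexpression, 2.65 and 10.08 in the tim-gal4 control, 8.64 and 11.68 in the knockout and 8.12 and 5.36 in w1118. Its 4 highest arrays were those of the other 2 transcripts, with which it correlated at 0.953 each, and CG16826 and whe correlated at 0.998 over the 8 arrays. These correlations describe 8 arrays that were normalized together. The gene lcs lies beside whe on the X chromosome with 1 annotated gene between them, while CG16826 lies on another chromosome. The gene sesB encodes the mitochondrial ADP/ATP carrier, and a probe set that carries the symbol of sesB alone lay between 12.43 and 13.22 on all 8 arrays. Another, 1636618_at, carries the symbols of CG8664 and sesB and lay between 2.48 and 2.67 on all 8 arrays. Apart from each other, the transcript most like both CG16826 and whe was Ag5r, a gene of the antigen 5 family. It read 5.65 and 7.69 in the knockout and 4.82 and 3.19 in w1118. Under overexpression it read 3.06 and 2.90, and in the tim-gal4 control 2.88 and 8.89.

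The high ZT16 readings of these 3 transcripts fell on the 2 arrays with genes of other organs. The 17 accessory gland genes had a median of 8.91 on knockout ZT16 and 7.96 on tim-gal4 control ZT16, and the 19 testis genes had medians of 5.66 and 5.51 there. The log2 of the summed intensity lay between 13.22 and 13.81 for the accessory gland list and between 12.15 and 12.67 for the gut list, against 6.47 to 6.71 and 6.59 to 6.66 on the other 6 arrays. The 11 ovary genes measured were below 4 on all arrays. At ZT4, by contrast, the 3 transcripts read 7.84 to 8.64 in the knockout while the medians of the accessory gland, testis and gut lists were at most 2.33. On that array the accessory gland gene Acp98AB read 4.28, against 12.15 on knockout ZT16 and 2.36 to 2.37 on the other arrays with list medians at background. In w1118 at ZT4 the 3 transcripts read 6.20 to 8.12, with list medians of at most 2.33. There 2 of the 19 testis genes, Tektin-C and bol, reached 4. The part that RNA of other organs has in the ZT16 readings was not tested. In bulk RNA, fewer cells of a type and less RNA per cell cannot be told apart.

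**Figure D3:**
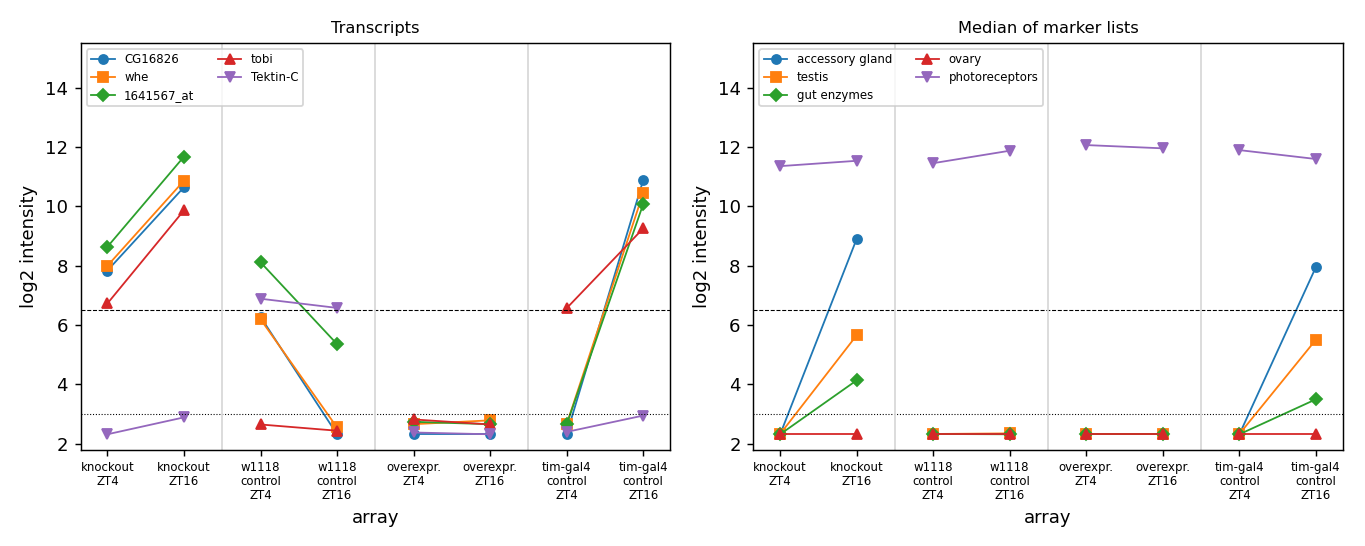
Log2 intensity of CG16826, whe, 1641567_at, tobi and Tektin-C (left) and the median log2 intensity of lists of marker genes (right) on the 8 arrays; lines join ZT4 and ZT16 of a strain, and the dashed and dotted lines are the thresholds of 6.5 and 3. The accessory gland, testis and gut medians leave background on knockout ZT16 and tim-gal4 control ZT16, whereas CG16826, whe and 1641567_at are also at 7.84 to 8.64 on knockout ZT4.

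The transcripts absent in both strains of the w1118 background were CG16713, tutl, 1641245_a_at and Osi6. CG16713, on 2L, is a small secreted protein gene of the Kunitz type, a family of protease inhibitors. It read 2.51 and 2.33 in the knockout and 2.99 and 2.67 in w1118, against 7.83 and 8.34 under overexpression and 8.89 and 9.24 in the tim-gal4 control. All 4 arrays of the w1118 background were at background and all 4 of the yw background were high. The adjacent gene IM33 did not share this split and read between 12.59 and 12.92 on the 8 arrays. None of the 8 neighbours of CG16713 above the filter showed it, against 1.65% of all probe sets above the filter. CG16704, with 4 annotated genes between, differed within the yw background instead, at 7.67 and 8.35 under overexpression and 10.72 and 11.14 in the tim-gal4 control.

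The gene tutl, on the same arm with 74 annotated genes between it and CG16713, encodes an immunoglobulin-family cell surface protein that shapes axons and dendrites. The probe set that met the rule read 2.72 and 2.40 in the knockout and 2.57 and 2.95 in w1118, against 7.14 and 7.27 under overexpression and 6.54 and 6.01 in the tim-gal4 control. The last of these values fell short of the threshold for presence, so the tim-gal4 control is counted as intermediate although it lies far above the w1118 background. A second probe set of tutl, 1636076_a_at, also read higher in the yw background, at lower levels, with 3.22 and 2.78 in the knockout, 3.08 and 3.12 in w1118, 4.53 and 4.99 under overexpression and 4.25 and 3.74 in the tim-gal4 control. The other 3 probe sets of the gene read at most 3.71 on every array. None of the 6 neighbours of tutl above the filter had the w1118 background at least 2-fold below the overexpression strain, a split shown by 4.1% of the probe sets above the filter. The cluster itself lies on 2L, with 212 annotated genes between mir-959 and tutl and 287 between it and CG16713, so neither lies next to it.

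The probe set 1641245_a_at, which has no gene in the annotation, separated the backgrounds in the same way. It read 2.61 and 2.60 in the knockout and 2.62 and 2.61 in w1118, against 7.76 and 6.84 under overexpression and 7.57 and 6.41 in the tim-gal4 control, where the ZT16 array fell just short of presence. Over the 8 arrays it correlated with tutl at 0.983 and with the member probe set of qvr at 0.991, points that share 8 arrays and a split between 2 backgrounds.

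Osi6, on 3R, belongs to the Osiris family, insect membrane proteins that are known for roles in forming cuticle. It read 7.85 and 7.99 in the tim-gal4 control alone. Under overexpression it read 3.25 and 2.34, and on the 4 arrays of the knockout and w1118 at most 2.34. The overexpression strain thus missed the threshold for absence by its ZT4 array, and the transcript was high in 1 strain of the 4. Osi6 lies within a row of Osiris genes, and of the 23 others on the array 22 were below 4 on every array. Osi2 was the exception, with 4.26 and 3.0 in the knockout, 2.34 and 2.43 in w1118, 5.64 and 3.98 under overexpression and 4.49 and 2.69 in the tim-gal4 control, an order that differs from that of Osi6. It was also the 1 neighbour of Osi6 above the filter and did not have the w1118 background 2-fold below the tim-gal4 control, as 2.18% of the probe sets above the filter did.

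CG14419, on the X chromosome, was absent in the tim-gal4 control alone. It read 6.39 and 5.82 under overexpression, against 2.95 and 2.93 in the tim-gal4 control. In the knockout it read 9.26 and 9.40 and in w1118 8.95 and 9.61. The order was thus highest in the w1118 background, lower under overexpression and at background in the tim-gal4 control, and these 3 levels did not overlap. CG3588, with 1 annotated gene between, had a probe set with nearly the same order: 5.85 and 5.50 in the knockout, 5.73 and 6.37 in w1118, 5.04 and 5.21 under overexpression and 2.66 and 2.64 in the tim-gal4 control. It was 1 of 2 neighbours above the filter, and 1.47% of all probe sets above the filter had the tim-gal4 control at least 2-fold below the whole w1118 background. KaiR1D, a glutamate receptor gene on another chromosome, also ran in this order (correlation 0.988), at 4.37 and 4.28 under overexpression and 2.71 and 2.59 in the tim-gal4 control.

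**Figure D4:**
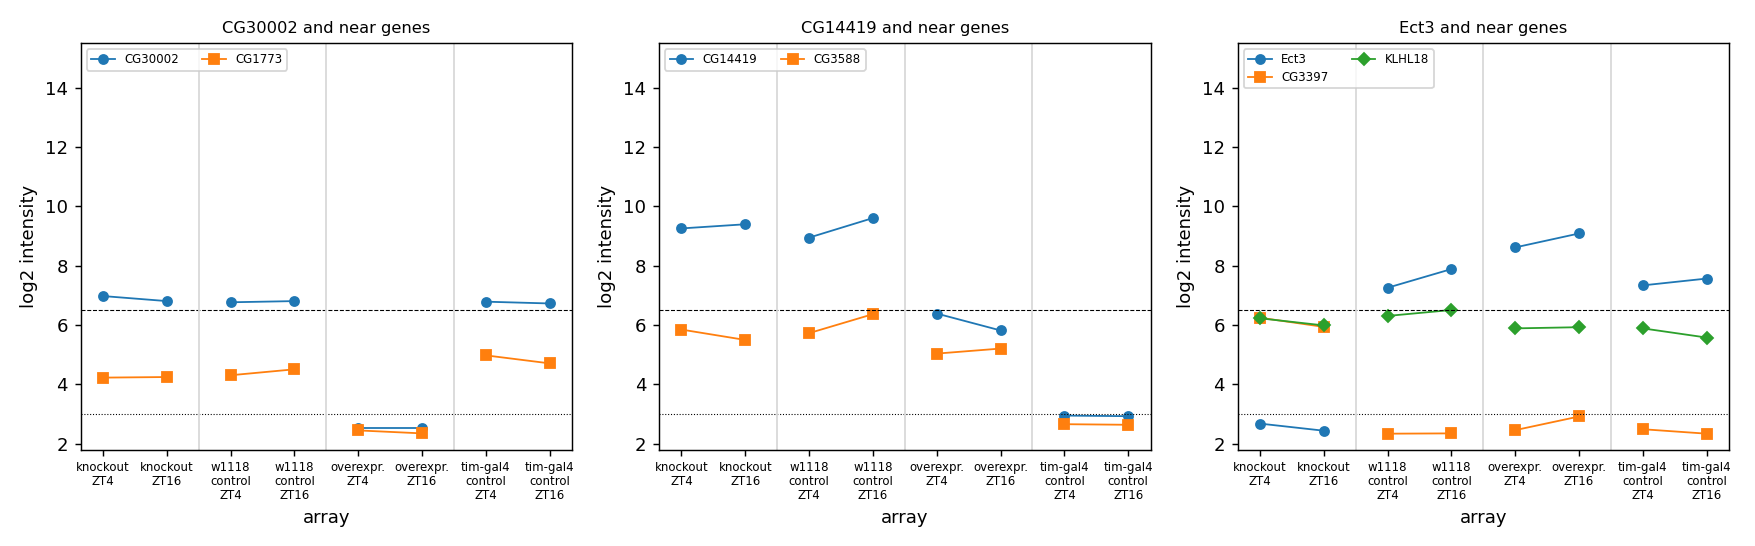
Log2 intensity of CG30002, CG14419 and Ect3 with measured genes that lie near them, on the 8 arrays; lines join ZT4 and ZT16 of a strain, and the dashed and dotted lines are the thresholds of 6.5 and 3. CG1773 and CG3588 are lowest in the same strain as their neighbour, while CG3397 is high in the knockout, where Ect3 is at background.

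Tektin-C, on 3L, encodes a microtubule protein of cilia and sperm tails. It read 2.32 and 2.89 in the knockout, against 6.89 and 6.58 in w1118. In the overexpression strain it read 2.38 and 2.32, and in the tim-gal4 control 2.40 and 2.95. The w1118 arrays were the only ones above background, so the knockout matched both strains of the yw background in this gene. Tektin-C also stands on the testis list, but it did not follow it. On the w1118 arrays 17 other testis genes read at most 3.04, bol read 4.54 and 4.75, and on the 2 arrays where 13 testis genes reached 4 it stayed at 2.89 and 2.95. The probe set most like it was that of tut, named for its part in male germ cells, which read 4.24 and 4.35 in w1118, against no more than 2.45 in any other strain. Of 7 neighbours above the filter, none was at least 2-fold higher in w1118 than in every other strain, a split shown by 0.108% of the probe sets above the filter.

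The gene tobi, on 3R, encodes an alpha-glucosidase whose expression is known to respond to insulin-producing cells and to adipokinetic hormone. It read 6.73 and 9.87 in the knockout against 2.65 and 2.44 in w1118. Under overexpression it read 2.82 and 2.65, against 6.57 and 9.26 in the tim-gal4 control. The 2 pairs therefore ran in opposite directions, with the gene present in the knockout and absent in its control, and absent under overexpression and present in its control. Both strains with the transcript were higher at ZT16, on the arrays with genes of other organs, whose part in these readings was not tested. On their ZT4 arrays tobi read above 6.5, and the medians of the accessory gland and gut lists there were at most 2.32. A split in which the arrays of w1118 and the overexpression strain lie at least 2-fold below those of the other strains was shown by 0.0723% of the probe sets above the filter, 6 in all, and by none of the 6 neighbours of tobi above the filter.

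The time of collection was compared over the 4 strains with limma, with strain as a block. The rule asks for the same state at both times, so it favours transcripts that differ little between them, and nothing is read from how few of the 15 were called. None of the 15 passed an adjusted p of 0.05, against 0.373% of the 8300 probe sets tested (31), and 1 of the 15 had an unadjusted p under 0.05, against 16.5% of all. That one was the qvr probe set, which differed by -0.27 on the log2 scale (SE 0.10, adjusted p = 0.292 in limma). For Ect3 the difference was 0.27 (SE 0.16, adjusted p = 0.37 in limma). A transcript at background in a strain has a change near 0 there, which pulls these averages towards 0. Among the 25 combinations of a transcript with a strain that had it, ZT16 differed from ZT4 by less than 1 on the log2 scale in 20, with values between -0.92 and 0.66.

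The other 5 combinations were CG16826, whe and 1641567_at in the knockout and tobi in both strains that had it, with values of 2.69 to 3.14, all on the 2 arrays with genes of other organs. Strains that met neither threshold are not among these combinations, and larger differences fell there. For CG16826, whe and 1641567_at they were 8.57, 7.79 and 7.43 in the tim-gal4 control. In w1118, whose arrays lacked the signal of other organs, they were -3.95, -3.65 and -2.75. Over all strains the value for tobi was 1.36 (SE 0.68, adjusted p = 0.319 in limma). Without those 2 arrays it was -0.19 (SE 0.13, adjusted p = 0.724 in limma), an estimate that then rests on w1118 and the overexpression strain, where tobi was at background. For the probe set 1641245_a_at, ZT16 differed from ZT4 by -0.92 under overexpression and by -1.16 in the tim-gal4 control. Its difference over all strains was -0.52 (SE 0.24, adjusted p = 0.293 in limma). With the 4 arrays of the yw background alone it was -1.04 (SE 0.17, adjusted p = 0.000586 in limma), a fit with 1 residual degree of freedom before moderation. In the same 4 arrays tobi differed by 1.26 (SE 0.34, adjusted p = 0.0343 in limma), an average of -0.17 under overexpression and 2.69 in the tim-gal4 control.

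Whether the time change of a manipulated strain differed from that of the other strains was read only for transcripts present in that strain and in its control. These were CG4306, CG30002 and CG14419 for the knockout and Ect3, qvr and CG16713 for overexpression. None was called by limma, where 0% of the 8300 probe sets were called in either comparison, and none of the 6 had an unadjusted p under 0.05, against 2.04% and 2.6% of all probe sets. The fit compared a manipulated strain with all the others, not with its control alone. Each of the 6 lay at or near background in some of those others, where little time change can show. No conclusion is drawn from these counts.

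Of the 13 transcripts with a placed gene, 3 lay on 3R, 3 on 2L, 3 on 2R, 2 on 3L and 2 on the X chromosome. These hold 25.2%, 18.2%, 20.2%, 19.7% and 16.2% of all placed probe sets, in that order, and nothing is read from the counts. Of the 130 nearest measured neighbours of the 13 transcripts, 65 were above the filter. In 4 of these, every array of the strains lacking the transcript was at least 2-fold below every array of the strains having it. Strains between the thresholds were not compared. Depending on the transcript, 0.0723% to 4.1% of all probe sets above the filter showed such a split. The 4 neighbours were CG1773, CG3588, CG9003 and, with 10 annotated genes between it and whe, the cytochrome P450 gene Cyp6t1. The split of Cyp6t1 (overexpression below the knockout) was shown by 3.14% of the probe sets above the filter. None of the 7 neighbours of CG16826 above the filter showed that split. In w1118 and the tim-gal4 control, which were not compared, Cyp6t1 read 6.54 to 6.79 and whe 2.55 to 10.45. The 15 are 0.0799% of the probe sets compared, so a count of 0 in a gene family is not a result about it. Families were counted by gene symbol alone, the serine proteases by symbols with Jon, Ser, Sp or Try. A gene known only by a CG number, as several members are, is therefore in none of them, whatever it encodes. Which families those members belong to was not examined. Among the families counted, 1 of 24 Osiris genes was a member. No member came from the 34 glutathione transferases, 35 UDP-glycosyltransferases, 47 odorant-binding proteins, 165 chemoreceptors, 66 cuticle proteins of the Cpr family, 22 immune peptides, 29 serine proteases, 28 serpins, 9 lectins, 4 metallothioneins or 88 long non-coding and antisense RNAs named in the annotation, and none of the 185 chemoreceptor probe sets reached a log2 of 4 on any array.

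The thresholds cut through a continuous range. Just inside the threshold for presence stood Tektin-C, whose lower array in w1118 read 6.58, and just inside that for absence stood CG30083, whose higher array under overexpression read 2.96. Just outside lay MtnD, a metallothionein gene, at 6.30 and 7.29 in the knockout and 2.67 and 3.40 in w1118. On the arrays of the yw background it read 2.54 to 2.81, which met the threshold for absence. NimC1, a phagocytosis receptor of blood cells, also lay just outside, at 3.23 and 3.09 in the knockout and 3.01 and 3.10 in w1118, with 7.33 and 7.24 under overexpression and 7.14 and 6.76 in the tim-gal4 control. It splits the backgrounds as CG16713 does.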

How the data were processed

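RNA from fly heads was measured on 8 arrays, 1 for each of 4 strains at 2 times. The values deposited by the authors are log2 intensities for 18952 probe sets, made with GCRMA, per the submitters' processing notes; its version and settings, and a genome build, are not given in the sources used here. Groups came from the sample titles. The 183 control probe sets were left out, and the members and lists were chosen with earlier results of these data known. Symbols came from the platform annotation, updated through RefSeq (Drosophila genome Release 6), which matched 13544 of 13647 probe sets with 1 symbol and gave the order of genes. A neighbour or marker gene with several probe sets was read by that of highest mean. Every member was named, by the rule that groups of at most 12 are named in full; the most alike transcripts and the neighbours given values were picked after their values were seen.

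Presence and absence were counted with Python 3.11.15, numpy 2.4.6 and pandas 2.3.3, and figures were drawn with matplotlib 3.10.9. Time of collection was tested with limma 3.58.1 in R 4.3.3 on the 8300 probe sets with a log2 of at least 4 on at least 2 arrays, with strain as a block (3 residual degrees of freedom). A further fit for each manipulated strain tested its time change against the others (2 residual degrees of freedom). With no replicates, the spread of the time change over strains served as the error. Tests were two-sided, with Benjamini-Hochberg adjustment over all kept probe sets and a threshold of 0.05, and the fits were tested on simulated data. Alternatives changed the thresholds, filter, normalization, arrays and moderation. No sequence was used.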

Additional observations from a re-analysis of the deposited data

How the results depend on the processing

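The number of transcripts was 15. It was 23 with presence from log2 6, 3 with absence up to 2.5, 26 with absence up to 3.5, 201 with the ZT16 arrays alone and 40 with the mean of the 2 arrays of a strain; leaving out each array in turn gave 15 to 176, where 176 came without knockout ZT4 and 154 without tim-gal4 control ZT4. Those absent in 1 manipulated strain only numbered 8, and 2 with absence up to 2.5, 17 with the ZT16 arrays alone and 5 to 16 without each array in turn (16 without knockout ZT4, 5 without tim-gal4 control ZT16). Those absent in both strains of 1 background numbered 4, and 8 with presence from log2 6, 1 with absence up to 2.5, 8 with the ZT4 arrays alone, 2 after quantile normalization, 8 without knockout ZT16 and tim-gal4 control ZT16, and 3 to 7 without each array in turn (7 without tim-gal4 control ZT16). Those absent in 1 control strain only numbered 1, and 3 with presence from log2 6, 0 with absence up to 2.5, 6 with absence up to 3.5, 5 with the ZT4 arrays alone, 4 with the ZT16 arrays alone, 4 with the mean of the 2 arrays and 1 to 5 without each array in turn (5 without w1118 control ZT16). CG16826 and Osi6 were found under all 19 settings, but with the same strains lacking in 14 and 15 of them, and none of the 15 had the same strains lacking in all 19. Absence up to 2.5 lost 12 of the 15.

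The count of transcripts called for time of collection was 0, and 2 of 11 tested with the arrays of the yw background alone, where 286 of all 7595 probe sets were called; it was 0 to 0 without each array in turn. For tobi the difference turned to -0.19 without knockout ZT16 and tim-gal4 control ZT16. Over the 3 transcripts read in each, both interaction counts were 0 under every setting run. Of those not read, tobi was called by limma for the knockout without either tim-gal4 control array (adjusted p = 0.0169 and 0.00205) and for overexpression without either w1118 array (0.00121 and 0.00113). An interaction cannot be fitted without an array of the manipulated strain. The strain block pairs ZT4 with ZT16 within a strain, and without it the count called for time was 0 as well. The labels give no replicate numbers that could serve as a further block. Signals near the lowest value limit every absence given here.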
